A study of Arabidopsis thaliana with 6 samples.

Results

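Glutathione transferases were examined in pollinated flowers of Arabidopsis thaliana, in the pop2-1 mutant and in the wild type. The family was taken as every probe set with 1 annotated gene whose symbol is GST or ATGST followed by a class letter (F, U, T, Z or L) and a number. This gave 14 genes, each with 1 probe set, out of 13356 genes that have a probe set of their own among the 22810 on the array. The rule uses gene symbols and no signal. There were 11 genes of the tau class (GSTU), 2 of the phi class (GSTF4 and ATGSTF13) and 1 of the lambda class (GSTL3). No theta or zeta gene was among them. The reference gene table names 48 genes that fit the same symbol rule, and the other 34, among them GSTF12, the phi-class transferase needed for anthocyanin to reach the vacuole, were not analysed here.

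Glutathione is a small sulfur-containing peptide, and glutathione transferases use it in several ways. Tau and phi enzymes, which are large classes in plants, join glutathione to reactive or foreign molecules such as herbicides and oxidised lipids, and many of their genes are induced by stress, hormones or chemicals. Theta enzymes act largely as peroxidases and zeta enzymes take part in tyrosine breakdown. Lambda enzymes carry a cysteine in place of the usual serine in the active site and remove glutathione from its adducts, flavonols among them.

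Each group held 3 samples named as biological replicates, 6 arrays in all. All plants were of the Ler accession, and the flowers were at stage 14 to 15. The mutant plants were homozygous for pop2-1, a loss of the transaminase that degrades γ-aminobutyric acid (GABA), so that GABA is high in their flowers. The wild-type flowers came from the same accession, and whole flowers were used, so that less RNA per cell and fewer cells of a type cannot be told apart. No label says what a replicate number shares, nor how many plants a sample pooled. The text fields of the wild-type samples on growth and collection repeat the wording for the mutant, so group and number were taken from the titles.

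Values are MAS5 signals, a linear hybridisation intensity for each probe set and array, scaled so that the 2% trimmed mean was 500.04 on every array. The number of arrays limits the precision. On array control probe sets for actin, the ratio of the signal near the 3′ end of the transcript to that near the 5′ end, a measure of RNA integrity, was 9.73 on pop2-1 replicate 2 and 1.72 to 2.93 on the other 5 arrays. The matching ratio for GAPDH was 1.73 on that array and 0.895 to 1.04 on the others. Of the flower organ identity genes set as markers, 0 had a listed probe set, so the tissue was not checked with them. The nectary sugar exporter SWEET9 was bright on all arrays (6814 to 7367), and the root hair expansin EXPA7 was dim (4.87 to 62.9). The summed signal of 4 pollen markers ranged from 694 to 1350 over the pop2-1 arrays, highest on replicate 2, and from 657 to 793 over the wild-type arrays. That of 4 ovule and young seed markers ranged from 330 to 447 over the pop2-1 arrays and from 458 to 812 over the wild-type arrays. Of the tested markers in this sum, BAN was lower in pop2-1 and INO was higher. The transcript of POP2 itself was not analysed here.

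The family was split by brightness. A probe set was tested if its mean log2 signal over the 6 arrays exceeded the 40th percentile of all probe sets, which corresponds to a signal of about 126. Of the 14 members 7 were bright enough, namely GSTU16, GSTU18, GSTU20, GSTU26, GSTU27, GSTF4 and GSTL3. GSTF4 was just inside, with a mean over the arrays equal to a signal of 130.9, and GSTU23, at 67.5, was the nearest outside. Since signals of different probe sets depend on the probes, levels are not compared between genes.

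None of the 7 tested glutathione transferases passed the test for a change in pop2-1 flowers: 0 had a limma adjusted p under 0.05, and 0 had an unadjusted p under 0.05. Among all 13647 probe sets tested, 63 passed, or 0.462%, and 11.9% had an unadjusted p under 0.05. A share of 0.462% gives less than 1 call in 7, so the count of 0 does not set the family apart from other genes. The count of members at an unadjusted p under 0.05 was 3 of 7 without pop2-1 replicate 1, where 22.1% of all probe sets had one, and 3 of 7 with array weights, where 24.9% had one, and 0 members passed after adjustment in either fit. With the replicate number as a block, 257 of all probe sets passed (1.88%) and the members again gave 0. The median log2 difference was -0.04 over the 7 members, 3 higher and 4 lower in pop2-1, and 0.03 over all probe sets tested, of which 55.4% were higher. The 95% interval of every member's difference, unadjusted and on the log2(signal + 16) scale, lay within a 2-fold change in either direction, as it did for 94.3% of all probe sets tested. GSTF4 had the widest interval of the 7, and its lower limit, -0.98, lay only just inside that bound. With a pseudocount of 1 the GSTF4 difference went from -0.30 to -0.35, and its interval in that fit is not given here.

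**Figure D1:**
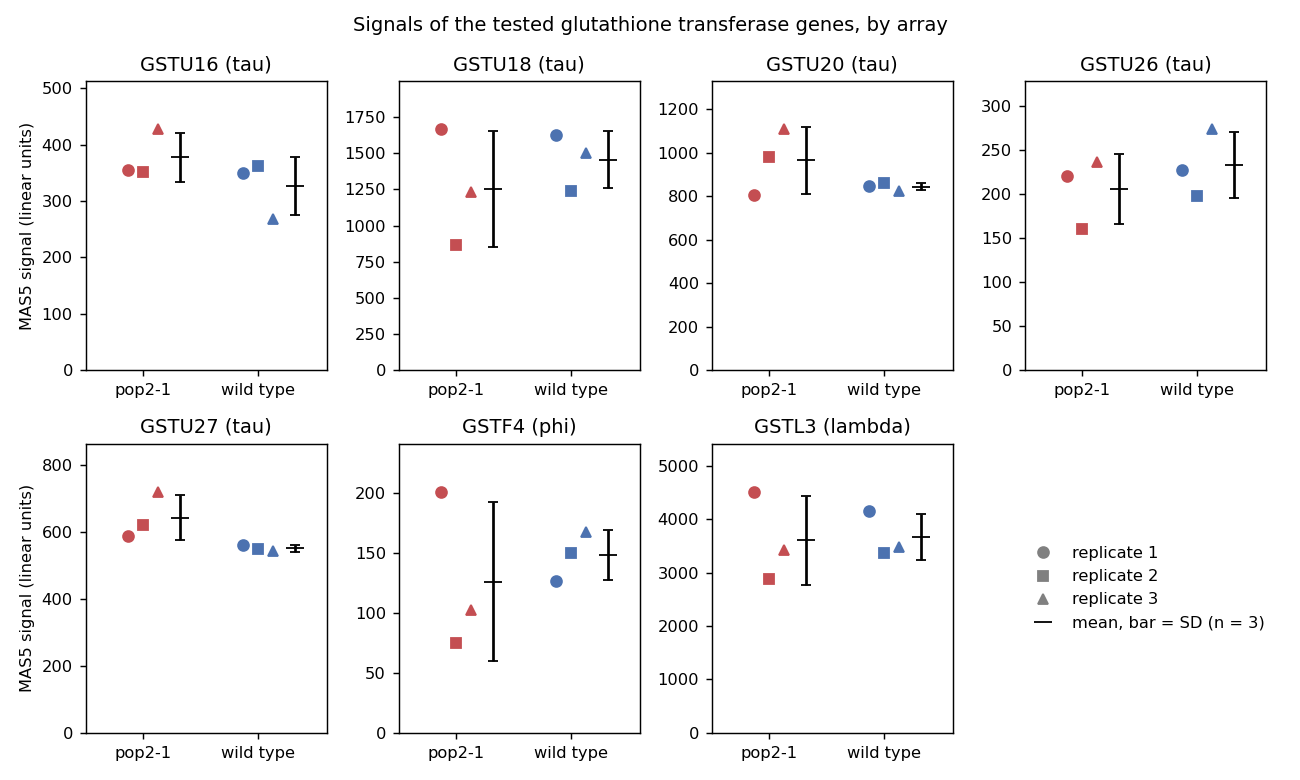
MAS5 signal (vertical axis, linear units, from 0) of the 7 tested glutathione transferase genes on each array, with pop2-1 in red, wild type in blue, a symbol for each replicate number, and the group mean with its SD in black (n = 3). The groups overlap for 6 of the 7 genes, and GSTU27 is the 1 gene whose pop2-1 signals, 590 to 721, all lie above the wild-type signals, 543 to 563.

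In the tau class 3 of the 5 tested genes had higher mean signals in pop2-1. GSTU27 read 590, 622 and 721 in pop2-1 replicates 1 to 3, and 563, 550 and 543 in the same replicates of the wild type. It was the 1 tested member with no overlap between its groups. Among all probe sets tested 17.9% had no overlap, and 9.84% had all pop2-1 signals above the wild type. GSTU27 was higher in pop2-1 in 3 of 3 same-numbered pairs, as were 22.2% of all probe sets. The difference was 1.16-fold (log2 0.21 ± 0.12, SE; 95% interval -0.06 to 0.48; limma adjusted p = 0.52), and GSTU27 ranked 2961st by p among all probe sets tested.

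GSTU20 encodes the tau enzyme also known as FIP1, which binds FIN219 (JAR1), the enzyme that conjugates jasmonic acid to isoleucine. Its signals were 805, 982 and 1109 in pop2-1 replicates 1 to 3 and 848, 860 and 826 in the wild type. Replicates 2 and 3 of pop2-1 lay above every wild-type array and replicate 1 lay below them all, so the groups overlapped. The mean ± SD of the 3 arrays was 965 ± 152 for pop2-1 and 845 ± 17.2 for the wild type, a log2 difference of 0.18 ± 0.13 (SE, limma adjusted p = 0.623). The pop2-1 arrays varied more than the wild-type arrays for this gene.

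GSTU16 read 355, 351 and 428 in pop2-1 and 351, 363 and 269 in wild type. The difference came from the arrays numbered 3: in that pair the log2 difference was 0.64, while in the pairs numbered 1 and 2 it was 0.02 and -0.05. Over all arrays it was 0.20 ± 0.16 (SE; 95% interval -0.15 to 0.56; limma adjusted p = 0.632). Without pop2-1 replicate 3 it was 0.12, and without wild-type replicate 3 it was 0.07.

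GSTU18 and GSTU26 had lower means in pop2-1. GSTU18 read 1666, 866 and 1229 in pop2-1 and 1625, 1241 and 1503 in wild type, so that replicate 2 was the lowest array in both groups and replicate 1 the highest. The difference was -0.25 ± 0.21 (SE; 95% interval -0.74 to 0.23; limma adjusted p = 0.66), and with the replicate block its limma adjusted p was 0.346. GSTU26, a gene known for its induction by chloroacetanilide herbicides, read 220, 160 and 237 in pop2-1 and 227, 198 and 274 in wild type. It was lower in pop2-1 in 3 of 3 same-numbered pairs, as were 17.3% of all probe sets, but the groups overlapped and the difference was -0.17 ± 0.19 (SE, limma adjusted p = 0.742).

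The phi-class gene GSTF4 had the widest spread of the tested members. Its signals were 201, 74.7 and 102 in pop2-1 and 127, 150 and 167 in wild type, so pop2-1 held both the highest and the lowest of the 6 values. On the log2 scale the SD was 0.64 in pop2-1 and 0.18 in wild type. The difference was -0.30 ± 0.30 (SE; 95% interval -0.98 to 0.38; limma adjusted p = 0.717). On 2 of the 3 pop2-1 arrays GSTF4 was under the filter level of 126.

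The lambda-class gene GSTL3 was nearly level between the groups. It read 4510, 2880 and 3424 in pop2-1 and 4150, 3363 and 3485 in wild type, with means of 3605 ± 830 and 3666 ± 424 (SD, n = 3 per group). The log2 difference was -0.04 ± 0.16 (SE, limma adjusted p = 0.932), and its 95% interval, -0.41 to 0.32, corresponds to 0.755-fold to 1.25-fold. GSTL3 was highest on replicate 1 and lowest on replicate 2 in both groups. The replicates stood in the same order in both groups for 3 of the 7 tested members, GSTL3, GSTU18 and GSTU26, and for 25.6% of all probe sets tested.

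**Figure D2:**
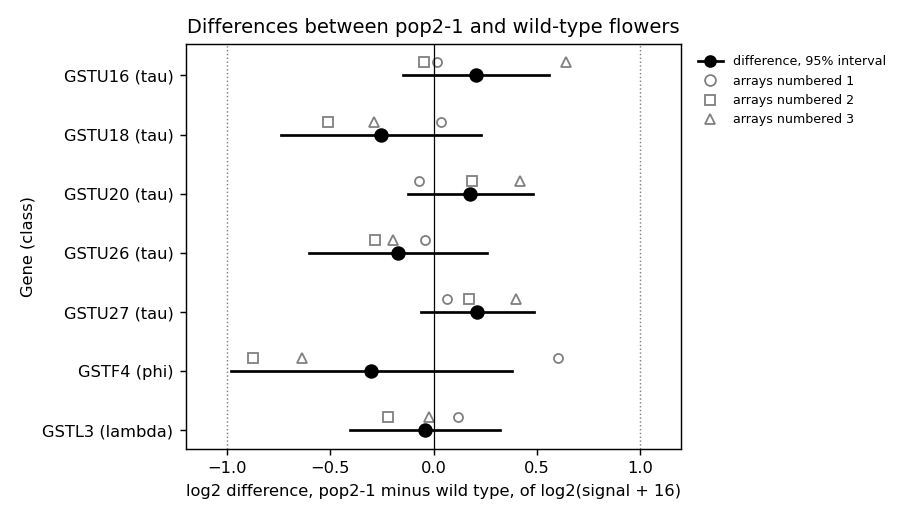
Difference between pop2-1 and wild type in log2(signal + 16) for the 7 tested genes (horizontal axis), with the limma estimate and its unadjusted 95% interval in black and the differences of same-numbered arrays as open grey symbols. Dotted lines mark a 2-fold change. Every interval spans 0 and stays inside the dotted lines, and for GSTF4 the pairs run from -0.87 to 0.60.

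The order of the pop2-1 arrays differed between members. GSTF4, GSTL3 and GSTU18 were highest on replicate 1 and lowest on replicate 2 within pop2-1, a pattern shared by 20.3% of all probe sets tested. The other 4 tested members, GSTU16, GSTU20, GSTU26 and GSTU27, were highest on replicate 3 within pop2-1, as were 26.7% of all probe sets. Of these, GSTU16 and GSTU26 were lowest on replicate 2. Over all 6 arrays the log2 signal of GSTU26 ran with that of GSTF4 (Pearson r = 0.60), as did GSTU18 (0.84) and GSTL3 (0.74). Those of GSTU16, GSTU20 and GSTU27 ran against it (-0.40, -0.79 and -0.56). The log2 signal varied more among pop2-1 arrays than among wild-type arrays for 6 of the 7 members, with GSTU16 the exception, and for 74.1% of all probe sets. GSTU27 and GSTU20 were the steadiest in wild type, where their log2 SDs were 0.03 each, against 0.15 and 0.23 in pop2-1.

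The 4 members with lower means in pop2-1, GSTF4, GSTL3, GSTU18 and GSTU26, were also the 4 whose lowest value of all 6 arrays lay on pop2-1 replicate 2, the array with the actin ratio of 9.73. That array was the lowest of the 6 for 24.6% of all probe sets tested. These traits are tied, since a lowest value on a pop2-1 array itself lowers the pop2-1 mean. Leaving that array out must then raise the difference. Without pop2-1 replicate 2 the log2 differences of these members were -0.03 for GSTF4, 0.11 for GSTL3, -0.02 for GSTU18 and -0.02 for GSTU26. Leaving out pop2-1 replicate 1 instead, the array on which GSTF4, GSTL3 and GSTU18 were highest, gave -0.66 for GSTF4, -0.22 for GSTL3, -0.48 for GSTU18 and -0.23 for GSTU26 (limma adjusted p from 0.14 for GSTF4 to 0.552 for GSTU26). The size and, for GSTL3, the sign of these differences moved with single arrays. The 3 members with higher means had differences of 0.25 for GSTU16, 0.16 for GSTU20 and 0.23 for GSTU27 without replicate 2, and of 0.24, 0.30 and 0.27 without replicate 1. Within the wild type GSTL3, GSTU18 and GSTU26 were lowest on replicate 2, and GSTF4 was lowest on replicate 1. GSTU16, GSTU20 and GSTU27 were lowest on wild-type replicate 3. The actin ratios of wild-type replicates 1 to 3 were 2.16, 2.93 and 1.72, against 2.70 on pop2-1 replicate 3. The share of all probe sets lowest on each wild-type array was not counted, and a link of these orders to the ratio within the wild type was not tested. The part of RNA integrity in these values was examined only by leaving out pop2-1 replicate 2 and by adding the ratio to the model. The fit with the ratio gave differences of -0.01 for GSTF4, 0.12 for GSTL3, 0.00057 for GSTU18 and -0.01 for GSTU26. Both fits lean on the same array, which has by far the highest ratio, so they are not separate checks. That array also had the highest pollen marker sum, 1350, and the cause of its values was not tested.

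**Figure D3:**
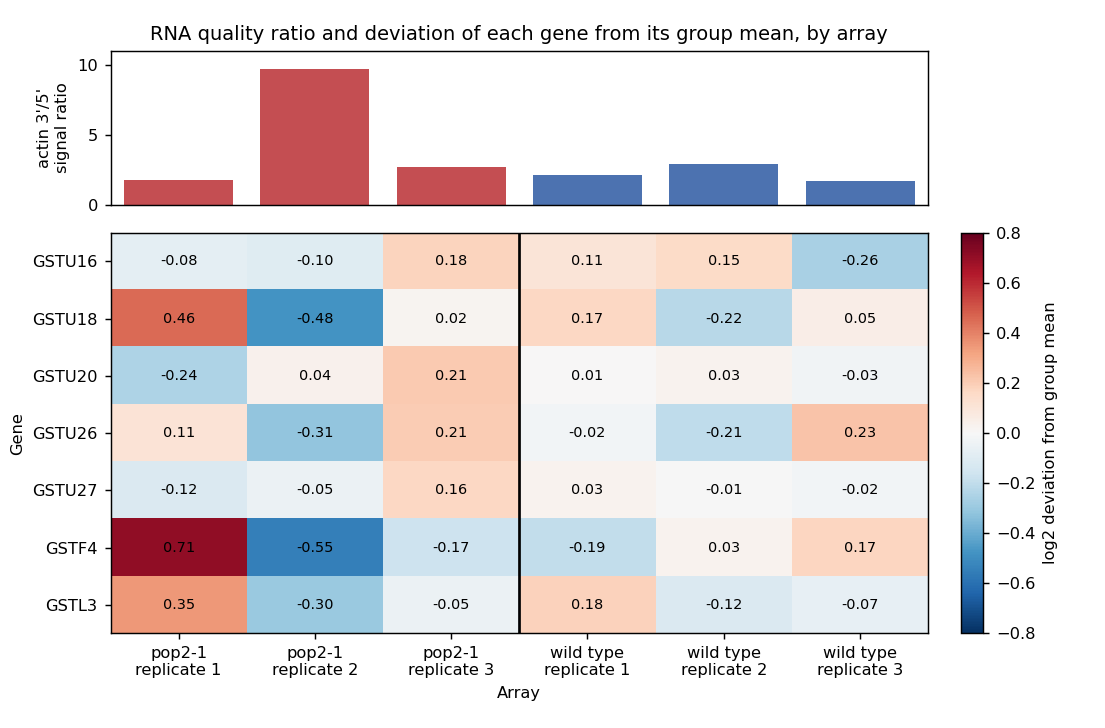
Upper panel, actin 3′/5′ signal ratio of each array (bars from 0, pop2-1 in red and wild type in blue). Lower panel, log2(signal + 16) of each tested gene minus the mean of its own group, by array, with the value printed in each cell. On pop2-1 replicate 2, the array with the ratio of 9.73, GSTF4 and GSTU18 lie 0.55 and 0.48 under their group means (cells of -0.55 and -0.48). GSTU16, GSTU20 and GSTU27 stand at -0.10, 0.04 and -0.05 on that array. On pop2-1 replicate 1, with a ratio of 1.81, GSTF4 and GSTU18 lie 0.71 and 0.46 above their group means.

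Among all tested probe sets with a named gene, 7319 besides GSTF4, the 3 whose log2 signals followed those of GSTF4 most closely over the 6 arrays were AT4G18950 (Pearson r = 0.991), AT3G47650 (0.984) and AT5G54530 (0.983). Their own differences were -0.11, -0.12 and -0.28 on the log2 scale. Over only 6 arrays, and with that many candidates, values of this size are a description of these arrays. All the correlated values share the arrays and their scaling.

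The remaining 7 members were too dim to test. Their signals ran from 4.50 to 105.6 over all arrays, and for 0 of the 7 did the groups separate, against 12.6% of all probe sets too dim to test. ATGSTF13 read 13.7, 27.6 and 53.7 in pop2-1 and 6.70, 28.5 and 35.1 in wild type. GSTU25, which encodes an enzyme that conjugates the explosive TNT to glutathione, read 9.93, 6.09 and 6.08 in pop2-1 and 21.6, 7.12 and 23.1 in wild type, with 2 wild-type arrays above all 3 pop2-1 arrays and 1 inside their range. GSTU23 was brightest of all arrays on pop2-1 replicate 3, at 105.6, and read 49.4 to 70.4 on the other 5.

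GSTU22 ranged from 40.9 to 47.3 over the pop2-1 arrays against 34.0 to 49.0 over the wild-type arrays, and GSTU28 from 36.1 to 66.5 against 31.2 to 44.8. GSTU15 ranged from 9.88 to 23.3 in the mutant against 5.15 to 18.1, and GSTU21 from 4.50 to 20.9 against 9.24 to 24.8. Detection calls were not used here, so signals this low are not known to lie above background. In a fit with no filter 0 of the 14 members passed, against 0.185% of all 22746 probe sets, and 0 had an unadjusted p under 0.05, against 10.0%. Both shares give few calls in 14. In that fit the differences of the dim members ran from -0.48 for GSTU25 to 0.29 for GSTU15 (limma adjusted p = 0.616 and 0.773).

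**Figure D4:**
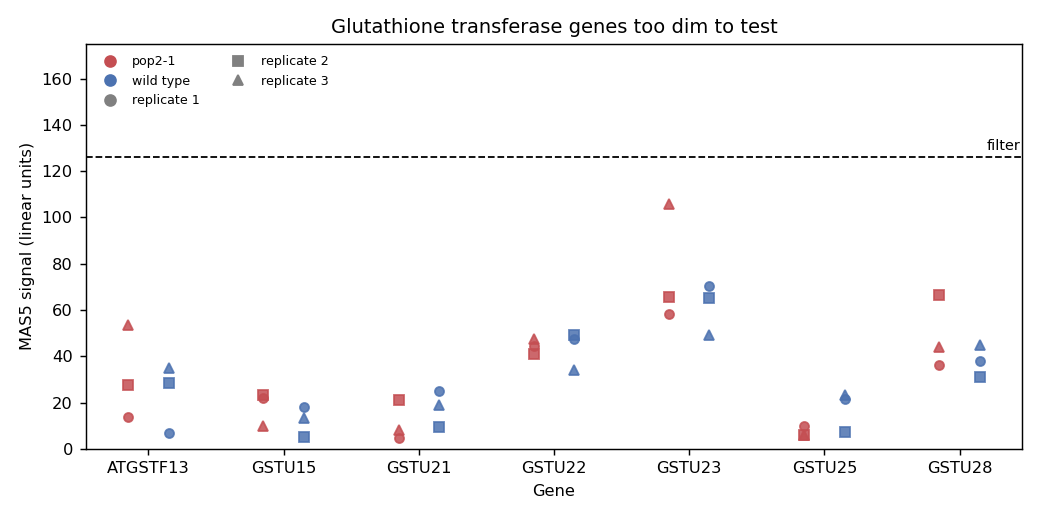
MAS5 signal (vertical axis, linear units, from 0) of the 7 members left out as too dim, on each array, with pop2-1 in red, wild type in blue and a symbol for each replicate number. The dashed line is the filter, a signal of about 126 applied to the mean of the log2 values. The groups overlap for all 7 genes.

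Several tau genes lie next to one another in the genome, as plant glutathione transferases often do. In the reference table GSTU23, GSTU22, GSTU21 and GSTU20 follow each other with 0 protein-coding genes between them. Of this row GSTU20 was bright enough to test, and its 3 neighbours stayed between 4.50 and 105.6 on all arrays. GSTU25 and GSTU26 are also direct neighbours, with GSTU26 tested and GSTU25 dim. GSTU15 and GSTU16 have 3 protein-coding genes between them, and GSTU16 alone of these was tested. Near copies of a gene can share probes, and cross-hybridisation between neighbours was not tested. Signals of different probe sets depend on the probes, so these values do not show which neighbour is more expressed.

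Other genes of glutathione use were read from the same fit. Of the genes listed for glutathione synthesis, reduction and turnover, for other glutathione-using enzymes, for export of conjugates, for TGA transcription factors (activators of many glutathione transferase genes) and for the response to foreign chemicals, 10 had a listed probe set and 7 were tested. Of these 7, 0 rose and 0 fell at a limma adjusted p of 0.05, and 1 had an unadjusted p under 0.05, against 0.462% and 11.9% of all probe sets tested. Both counts are near those shares. No conjugate transporter and no TGA factor had a listed probe set.

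GR, the plastid and mitochondrial glutathione reductase that regenerates reduced glutathione, read 1114, 1194 and 1168 in pop2-1 and 1048, 1001 and 1117 in wild type. Of its 3 pop2-1 signals, those of replicates 2 and 3 lay above the wild-type range, and the log2 difference was 0.13 ± 0.11 (SE, limma adjusted p = 0.64). The 4 tested glyoxalase II family genes, whose enzymes include those that release glutathione from its conjugate with methylglyoxal, differed by 0.01 for GLY2, 0.02 for GLX2-1, 0.06 for GLX2-5 and 0.11 for GLX2-4 on the log2 scale. Limma adjusted p over these 4 genes ran from 0.75 to 0.979.

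Of the genes for the response to foreign or reactive chemicals, ALDH7B4, a stress-induced aldehyde dehydrogenase, read 3280, 2741 and 3190 in pop2-1 and 4003, 3931 and 4250 in wild type. The groups did not overlap, as for 17.9% of all probe sets tested, and the difference was -0.41 ± 0.10 (SE; limma unadjusted p = 0.00318, adjusted p = 0.158). AER, an alkenal reductase that detoxifies lipid-derived aldehydes, read 350, 263 and 277 in pop2-1 and 129, 268 and 237 in wild type, a log2 difference of 0.51 ± 0.25 (SE, limma adjusted p = 0.459). UGT73C1, UGT73B4 and UGT73B5, glycosyltransferase genes of the same list, were too dim to test.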

How the data were processed

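Per the labels, total RNA of flowers was made into biotin-labelled cRNA and hybridised to Affymetrix ATH1 arrays. The authors deposited MAS5 signal intensities, 1 linear value per probe set and array, named as MAS5 in the submitters' processing notes; the version and the scaling target are not given in the sources used here. Because of the common scaling, a change in the total amount of RNA would not be seen. Gene names came from the platform annotation, which gave 1 gene for 13513 probe sets and several for 503 and did not list 8794, updated through the Entrez number to the TAIR10.1 gene table, which held 13436 of the 13513. No coordinates are printed, because no build comes with the signals.

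A pseudocount of 16 was added before log2, which understates changes of dim genes. The 64 array controls were left out, and of the other 22746 probe sets the 13647 whose mean log2 signal exceeded the 40th percentile were tested. A 2-sided test of pop2-1 against wild type was made with the lmFit and eBayes functions of limma 3.58.1 under R 4.3.3, with a trend of the variance on intensity. The p-values of all 13647 were adjusted together after Benjamini and Hochberg. On data simulated for this comparison over 13647 probe sets, 69% of genes changed by 1 on the log2 scale and 87% of those changed by 2 were called, and 3.1% of the calls were false. The simulated noise was normal, independent between arrays and of equal spread in both groups. It thus held no effect shared by same-numbered arrays and no array of low RNA integrity, so these shares may be too high for the real arrays. Changes as small as those of the members were not simulated. p-values measure the spread between the samples named as replicates.

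Both groups carry replicate numbers 1 to 3. After each group mean was subtracted, the arrays that share a number correlated across probe sets at 0.213, 0.421 and 0.178, so the numbers were taken to pair the arrays; the pairing comes from the titles and these correlations. The main fit has no block, so its p-values and intervals leave this pairing out. With the replicate block the limma adjusted p of the tested members ran from 0.346 for GSTU18 to 0.863 for GSTL3.

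Named were all 14 members, up to 4 genes with the smallest p from each list of glutathione and detoxification genes, and the 3 probe sets most like the member with the largest SD. The symbol rule, the lists and the tests were chosen with earlier results of these data known. The glutathione synthesis list had 1 tested gene, the other glutathione-using enzymes 4 and the chemical-response list 2. Of the marker lists, pollen had 3 tested genes, nectary 1, ovule and young seed 2, and flower organ, leaf and root 0. BAN, of the ovule and young seed markers, fell in pop2-1 (log2 -2.45, limma adjusted p = 0.0102), while INO, the other tested marker of that list, stood 0.31 higher on the log2 scale (limma adjusted p = 0.567); no tested marker of another list passed.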

Additional observations from a re-analysis of the deposited data

How the results depend on the processing

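Over 16 planned settings and 1 later one, 0 of the tested members passed in any. The later one, the actin 3′/5′ ratio as a covariate, was chosen after seeing the data. Over the alternatives the lowest limma adjusted p of a member was 0.0734, for GSTU27 with array weights, where GSTU20 stood at 0.0907. The looser threshold of 0.10 was applied to the main fit alone. The members at an unadjusted p under 0.05 went from 0 to 3 with array weights (GSTU16, GSTU20 and GSTU27, all higher in pop2-1). They went to 3 without pop2-1 replicate 1 (GSTU20 higher, GSTF4 and GSTU18 lower).

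Of 103 alternative values of single members 5 turned sign. GSTL3 stood at 0.013 with quantile normalization, 0.11 when pop2-1 replicate 2 was left out, 0.05 when wild-type replicate 1 was, and 0.12 with the actin covariate, and GSTU18 at 0.00057 with that covariate. Neither gene was called in any setting.

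The median log2 difference of the members, -0.04, was 0.10 with no filter (14 members), 0.18 with a filter at the 60th percentile (5 members) and 0.12 with the actin covariate. Leaving out 1 array gave -0.22 (without pop2-1 replicate 1) to 0.11 (without pop2-1 replicate 2). The median therefore has no settled sign.

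Calls over all probe sets, 63, were 37 with the filter at the 60th percentile, from fewer probe sets tested, 946 with array weights, 257 with the replicate block, 150 at an adjusted p under 0.10 and 156 with the actin covariate. Leaving out 1 array gave 5 (pop2-1 replicate 3 or wild-type replicate 2 left out) to 496 (without pop2-1 replicate 1), and the fits that lack replicate 1 or 3 of the wild type gave 14 and 8. Array weights also called 1 gene of the glutathione and detoxification lists, ALDH7B4, as lower, in place of 0. The cause of these moves was not tested. The replicate block changed no call of a member or list gene. The deposited signals carry no detection call, and 3 arrays per group limit what can be seen in dim members.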
